A study of Mus musculus with 71 samples.

Results

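The genes described here are the 4 AMPA receptor pore subunits (Gria1, Gria2, Gria3 and Gria4) and 5 auxiliary subunits, the transmembrane regulatory proteins Cacng2, Cacng3 and Cacng8 and the cornichons Cnih2 and Cnih3. They were chosen by gene symbol. The rule used no measured value, though the set was drawn up with earlier results of these data known. All 9 were found among the 37681 genes of each of 6 tables, 1 for each of 3 brain regions at each of 2 time points. The mice were adult wild type males and females of the strain C57BL/6, given as C57BL/6J in the study's methods. All of them, controls included, were housed singly, were first trained to respond for food pellets and received a jugular catheter. They then self-administered cocaine or saline in daily sessions and were killed 1 or 28 days after the last session. RNA was sequenced from micro-punches of the nucleus accumbens (NAc), the ventral tegmental area (VTA) and the prefrontal cortex (PFC). The 12 groups held 6 libraries each, except for the saline VTA group at 28 days with 5, and 71 libraries were used in all. Mice were allocated to groups by cage. Neither the labels nor the methods tie the punches of 3 regions to one mouse or say how many mice gave a library, so p-values measure only the spread between libraries, which may be partly technical.

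Total reads counted in genes ranged from 20971967 to 49700932 per library, and all 9 genes passed the filters on low values in every comparison. The regions carried their own markers. The summed level of 10 dopamine neuron markers was 700 to 2818 RPKM in VTA libraries and at most 36.8 RPKM in the libraries of the other regions, where RPKM is the read count scaled to the length of the gene and to the total reads of the library. Markers of striatal medium spiny neurons summed to 1784 to 4029 RPKM in NAc libraries, and markers of cortical excitatory neurons summed to 496 to 830 RPKM in PFC libraries. A saline PFC library at 28 days stood apart in its regional markers. In it the striatal markers summed to 1443 RPKM against 104 to 138 in the other 5 libraries of its group and the cortical markers to 498 against 721 to 830. NAc libraries varied in their cortical markers, from 9.62 to 294 RPKM. Choroid plexus markers reached 150 RPKM in a cocaine VTA library at 1 day (group median 7.35) and 61.0 RPKM in a saline VTA library at 1 day (group median 4.87). No member was called there with all libraries or with any 1 left out, so the deletions cannot show what these libraries contributed. Over VTA libraries of both days, as deviations from group means, 2 choroid plexus markers had negative correlations with every member. Pearson's r ran from -0.71 (Cacng3) to -0.25 (Cnih3), and no fit used these markers as a covariate. In punches of mixed tissue, fewer cells of a type and less RNA per cell cannot be told apart.

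AMPA receptors are tetramers of the GluA subunits encoded by Gria1 to Gria4, and they carry most fast excitatory transmission in the brain. Receptors that contain the Gria2 product pass little calcium, because its RNA is edited at the Q/R site, a codon in the pore loop where adenosine deamination turns glutamine into arginine. Receptors without it are permeable to calcium, and their appearance at synapses of the NAc and the VTA has been studied widely in cocaine exposure and withdrawal. The Cacng genes shown here encode the transmembrane AMPA receptor regulatory proteins (TARPs) stargazin, gamma-3 and gamma-8, which carry receptors to the synapse and slow their gating. Cornichons bind the same receptors and slow their deactivation.

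The coding sequences around the Q/R site are shown for the 4 pore subunits, because the ratio of Gria1 to Gria2 given further on sets a gene whose codon is left as glutamine against the gene whose codon is edited. Each stretch of 63 bases is on the coding strand, from the mm9 genome and its GENCODE coding transcripts, and spans an exon junction. Capitals mark the Q/R codon as the genome encodes it.
Gria1: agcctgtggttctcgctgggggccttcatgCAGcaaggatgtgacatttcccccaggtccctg
Gria2: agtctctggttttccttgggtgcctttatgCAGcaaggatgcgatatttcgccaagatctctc
Gria3: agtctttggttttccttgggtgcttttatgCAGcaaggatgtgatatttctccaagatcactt
Gria4: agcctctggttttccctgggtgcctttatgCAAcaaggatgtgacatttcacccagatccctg
The codon lay at chr11:57056596-57056598 in Gria1, at chr3:80510833-80510835 in Gria2, at chrX:38963442-38963444 in Gria3 and at chr9:4464137-4464139 in Gria4. Counted from the first methionine it is residue 600, 607, 612 and 608 of the respective proteins. All 4 genes encode glutamine there, and Gria4 uses a different codon from the rest. Over the stretch Gria2 and Gria3 were the most alike, at 57 of 63 bases (90.5%), and Gria1 was the least like Gria2 and Gria3, at 49 of 63 (77.8%) each. The tables hold counts per gene and carry no base calls, so neither editing nor splice forms could be read from them.

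The 9 genes are protein coding and lie on 8 chromosomes of mm9. The pore subunit genes span chr11:56824889-57143746 (Gria1), chr3:80488858-80606713 (Gria2), chrX:38754031-39031778 (Gria3) and chr9:4417899-4796234 (Gria4). The TARP genes span chr15:77822178-77950458 (Cacng2), chr7:129815258-129912905 (Cacng3) and chr7:3394567-3415366 (Cacng8). The cornichon genes span chr19:5092871-5098418 (Cnih2) and chr1:183282759-183390772 (Cnih3). Levels were compared between genes only per length. The authors' gene length was 5217 to 6972 bases for the pore subunits, but only 668 bases for Cacng8, so the level of Cacng8 relative to the other TARPs depends on that short model.

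Levels of the 9 genes differed between the regions. In saline mice at 28 days the NAc exceeded the VTA in 7 of the 9 genes and fell below it in Gria4 and Cacng2, and all 9 differences passed the test (edgeR quasi-likelihood test, Benjamini-Hochberg adjusted p from 3.51e-11 to 0.00602). In this comparison 62.5% of all 17181 genes tested passed, so a call alone sets the members little apart from other genes. The median difference over the members was 1.38 on the log2 scale, against -0.03 over all genes. The VTA also differed from the PFC in 8 of the 9 genes, against 57.8% of all genes, with a median over the members of -1.58 against 0.02 over all genes. The NAc and the PFC differed in 5 of the 9, against 40.7% of all genes, with a median of -0.20 against 0.02. Each region is in a table of its own, so region and anything shared by the libraries of a table cannot be told apart. The counts of the 3 tables were fitted together and scaled in that fit.

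Among pore subunits, Gria1, which is inserted at synapses during plasticity, had a level of 112 ± 6.56 RPKM (SD, n = 6) in the NAc, 82.1 ± 11.5 RPKM (n = 6) in the PFC and 53.9 ± 7.81 RPKM (n = 5) in the VTA of saline mice at 28 days. The order NAc, PFC, VTA held at each step. Gria1 was 1.32-fold higher in the NAc than in the PFC (adjusted p = 0.00220, edgeR) and 1.69-fold higher in the PFC than in the VTA (adjusted p = 4.78e-06, edgeR). Gria2 had a level of 77.5 ± 13.0 RPKM in the NAc, 68.7 ± 4.86 RPKM in the PFC and 24.3 ± 3.95 RPKM in the VTA. It was 3.44-fold higher in the NAc than in the VTA and 3.13-fold higher in the PFC than in the VTA, while the NAc and the PFC did not differ beyond their spread, with a log2 difference of 0.14 (95% confidence interval -0.11 to 0.39). Gria3 was highest in the PFC at 54.2 ± 5.26 RPKM, followed by the NAc at 37.7 ± 2.96 RPKM and the VTA at 14.96 ± 2.84 RPKM. All 3 steps of Gria3 passed the test, and the PFC exceeded the VTA by 4.01-fold.

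Gria4, which encodes a subunit with fast kinetics, ran the other way. Its level was 23.8 ± 3.04 RPKM in the VTA, 16.4 ± 2.16 RPKM in the PFC and 12.6 ± 0.66 RPKM in the NAc. It was 1.75-fold higher in the VTA than in the NAc (adjusted p = 1.29e-06, edgeR) and 1.31-fold higher than in the PFC (adjusted p = 0.00258, edgeR). Gria4 was the only pore subunit with its highest level in the VTA in these groups.

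The TARPs also differed in their order of regions. Cacng3 had a level of 60.9 ± 4.21 RPKM in the PFC, 54.7 ± 2.82 RPKM in the NAc and 11.2 ± 2.60 RPKM in the VTA. The PFC exceeded the VTA by 6.01-fold and the NAc exceeded it by 5.25-fold (adjusted p = 1.38e-11 and 3.51e-11, edgeR). Cacng8 had 21.4 ± 3.46 RPKM in the PFC, 19.2 ± 2.54 RPKM in the NAc and 7.95 ± 0.73 RPKM in the VTA, and was 2.98-fold and 2.60-fold above the VTA. Cacng2, the gene of stargazin, had 17.3 ± 0.75 RPKM in the VTA, 16.9 ± 1.22 RPKM in the PFC and 11.9 ± 0.69 RPKM in the NAc. The NAc was 1.35-fold below the VTA and 1.46-fold below the PFC, and the VTA and the PFC did not differ beyond their spread (log2 difference -0.11, 95% confidence interval -0.26 to 0.03). The fit scaled libraries by TMM and RPKM by total reads, and the sign of this difference was not that of the mean levels. That last difference depended on the libraries, since in saline mice at 1 day Cacng2 was 1.21-fold higher in the VTA than in the PFC (adjusted p = 0.0134, edgeR on reads recovered from the RPKM values).

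Cnih2 had 184 ± 22.8 RPKM in the NAc, 138 ± 18.5 RPKM in the PFC and 58.8 ± 21.1 RPKM in the VTA. It was 3.37-fold higher in the NAc than in the VTA and 2.62-fold higher in the PFC than in the VTA. The NAc and the PFC were not separated in saline mice at 28 days (log2 difference 0.37, 95% confidence interval 0.03 to 0.70, adjusted p = 0.0764, edgeR). Nor were they in cocaine mice at 1 day (0.26, adjusted p = 0.0645, edgeR). The call was made in cocaine mice at 28 days (0.26, adjusted p = 0.00542, edgeR) and in saline mice at 1 day (0.28, adjusted p = 0.0339, edgeR). It was also made in saline mice at 28 days without either of 2 saline VTA libraries. These entered that comparison through the scaling, the filter on low values and the spread, which the fit shares between regions. Cnih3 was highest in the PFC, at 34.8 ± 7.57 RPKM against 11.3 ± 5.05 RPKM in the NAc and 5.36 ± 3.36 RPKM in the VTA. It was 3.20-fold higher in the PFC than in the NAc and 7.26-fold higher in the PFC than in the VTA. Without the saline PFC library with striatal markers, its log2 difference between NAc and PFC was -1.75 in place of -1.68, and that between VTA and PFC was -2.95 in place of -2.86.

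The same fits in the other 3 sets of libraries (28-day cocaine, 1-day saline and 1-day cocaine) kept the direction of each of the 22 called differences. All but 2 of them passed the test in every set. Cnih3 in the NAc exceeded the VTA by 2.27-fold in saline mice at 28 days but by 1.21-fold in cocaine mice (adjusted p = 0.411, edgeR). Gria4 in the VTA exceeded the PFC by 1.21-fold in cocaine mice at 1 day (adjusted p = 0.0954, edgeR). Cacng3 was lower in the NAc than in the PFC in each of these 3 sets, with log2 differences from -0.49 to -0.43, while in saline mice at 28 days the difference was -0.19 (adjusted p = 0.177, edgeR). The sign of the Cacng8 difference between NAc and PFC turned from -0.20 to values between 0.10 and 0.20, none of which passed the test. Without 1 saline PFC library it was -0.28 (adjusted p = 0.0343, edgeR), so that this call rested on single libraries.

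**Figure D1:**
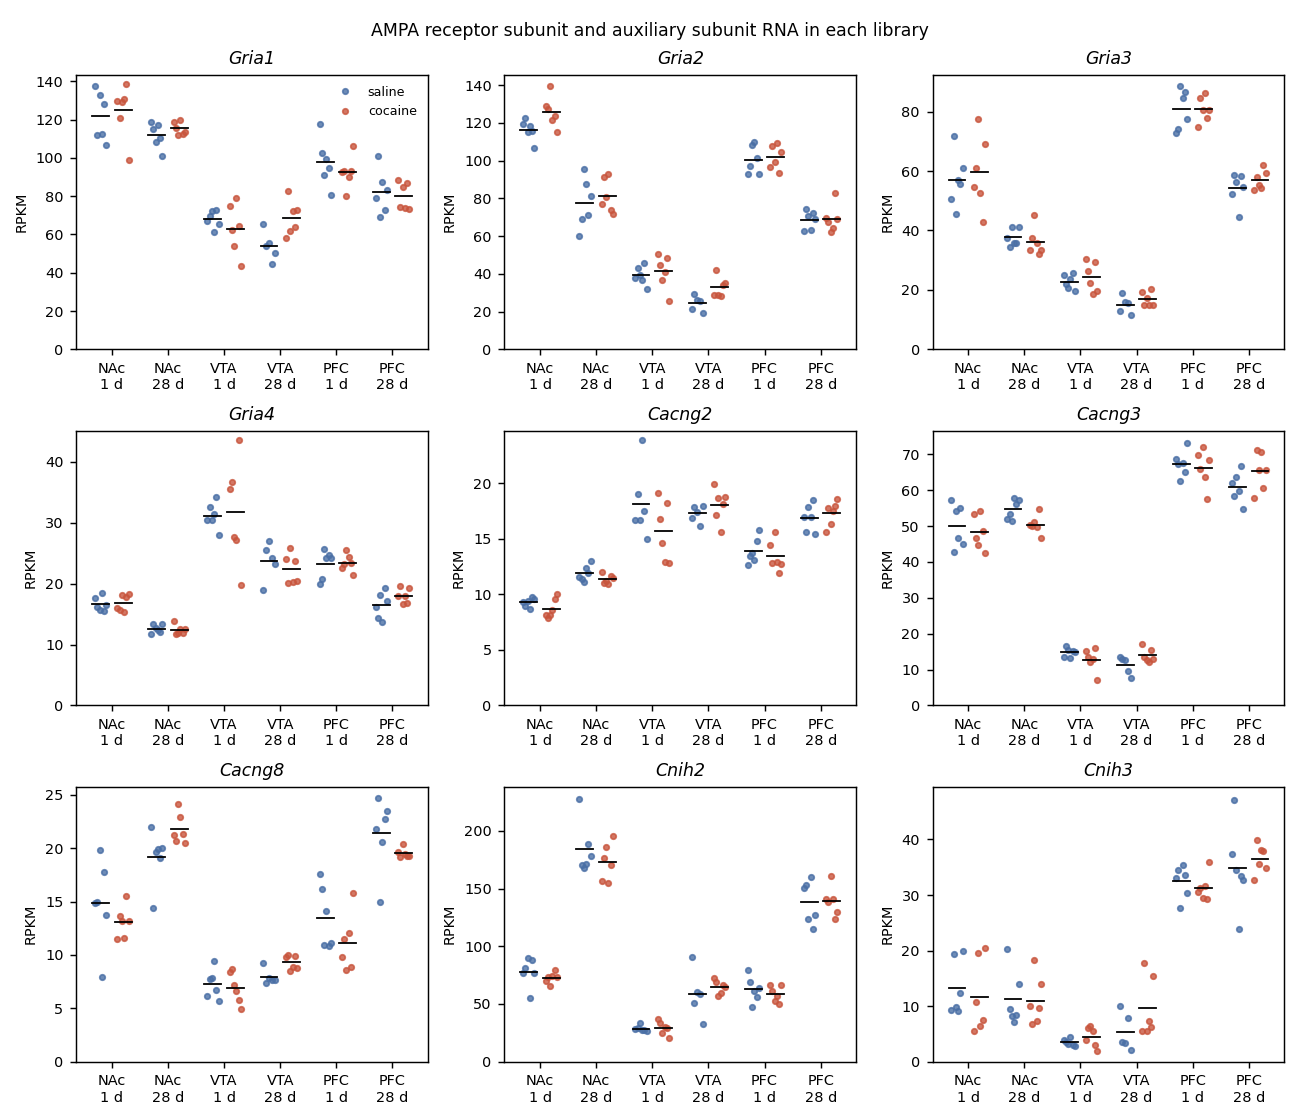
Level of each gene in RPKM (vertical axes, from 0) in every library of the 6 tables (horizontal axis, region and days). Each point is a library, colour marks cocaine or saline and the black line is the group mean. Gria4 and Cacng2 are higher in the VTA than in the NAc while Gria2, Gria3, Cacng3 and Cnih3 are low there, and the points of cocaine and saline libraries overlap in all 54 pairs of groups. At most 1.67% of all genes tested in any table have groups that do not overlap.

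As a share of the summed level of the 4 pore subunits, Gria4 made up 20.4% ± 2.61 (SD, n = 5) in saline VTA libraries at 28 days, against 5.28% ± 0.36 (n = 6) in the NAc and 7.46% ± 1.10 (n = 6) in the PFC. At 1 day the respective shares were 19.4%, 5.35% and 7.70%, so the regions kept this order in tables that share no library. Gria3 took 24.5% ± 1.82 in the PFC, 15.7% ± 1.15 in the NAc and 12.7% ± 1.79 in the VTA at 28 days. The summed level of the 4 genes was 240 ± 12.7 RPKM in the NAc, 221 ± 14.9 RPKM in the PFC and 117 ± 9.83 RPKM in the VTA. Among the 3 TARPs, Cacng2 made up 47.6% ± 4.26 in the VTA and was below Cacng3 in the NAc and the PFC, where Cacng2 had 13.9% ± 0.41 and 17.0% ± 0.92. Cnih3 made up 20.2% ± 3.76 of the cornichon level in the PFC, 7.86% ± 2.80 in the VTA and 5.62% ± 1.73 in the NAc. These shares are descriptions and were not tested.

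**Figure D2:**
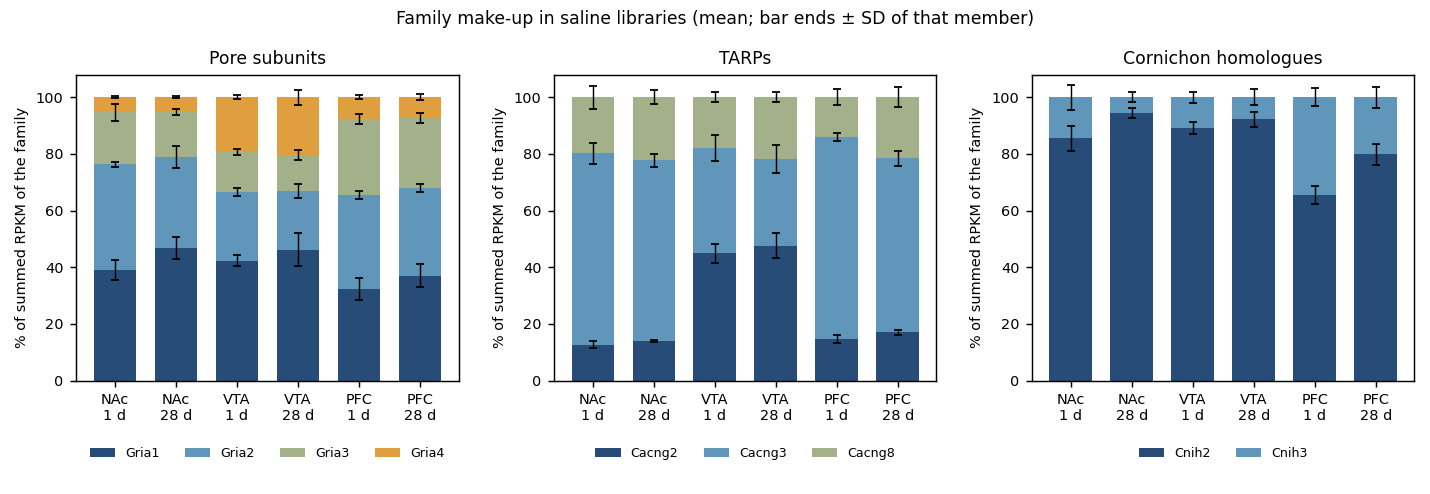
Share of each gene in the summed RPKM of its family (vertical axes, percent) in the saline libraries of each region and day (horizontal axes), for the pore subunits, the TARPs and the cornichons. Bars are group means and each error bar is the SD of the share whose bar ends there, with 5 or 6 libraries per bar. Gria4 holds about the same share of the pore subunits in both VTA groups (19.4% and 20.4%) and less than 8% elsewhere.

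Levels of the same group at 1 and at 28 days came from separate tables and are set side by side without a test, since day and table cannot be told apart. Gria2 in saline NAc libraries had 116 ± 5.42 RPKM at 1 day and 77.5 ± 13.0 RPKM at 28 days. Cnih2 had 78.1 ± 12.5 RPKM at 1 day and 184 ± 22.8 RPKM at 28 days there, and 72.6 ± 4.47 RPKM and 173 ± 16.2 RPKM in the cocaine libraries. The gap of Cnih2 in the NAc was thus of like size in both treatments. Neither gap was particular to the NAc. Mean Gria2 at 1 and 28 days was 39.2 and 24.3 RPKM in saline VTA libraries and 100 and 68.7 RPKM in saline PFC libraries. Mean Cnih2 was 28.7 and 58.8 RPKM in the VTA and 62.7 and 138 RPKM in the PFC of saline mice.

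The ratio of Gria1 to Gria2 was computed in each library, where any scaling between libraries drops out. Ratios of RPKM compare the genes per length. The mean ratio in saline libraries was 1.05 ± 0.11 in the NAc, 1.75 ± 0.17 in the VTA and 0.978 ± 0.163 in the PFC at 1 day. At 28 days it was 1.48 ± 0.31, 2.28 ± 0.56 and 1.20 ± 0.17. The VTA exceeded both other regions within each of the 4 sets of libraries, by 0.56 to 0.90 on the log2 scale (two-sided exact permutation test, Benjamini-Hochberg adjusted p over 12 comparisons from 0.00433 to 0.0231). The smallest p the exact test can give is 0.00216 for 6 against 6 libraries and 0.00433 for 6 against 5. The NAc and the PFC differed in 1 of the 4 sets, the cocaine mice at 28 days, by 0.30 on the log2 scale (exact permutation test, adjusted p = 0.0162). In saline mice at 28 days the difference was also 0.30 with an adjusted p of 0.0909 in the exact permutation test.

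Cocaine did not separate from saline in this ratio. In the VTA at 1 day the ratio was 1.78, 1.63, 1.83, 1.66, 1.58 and 2.03 in the saline libraries and 1.48, 1.40, 1.47, 1.91, 1.33 and 1.70 in the cocaine libraries. Of the cocaine libraries 4 lay below all saline libraries, while 1.70 and 1.91 lay inside the saline range. The log2 difference of cocaine minus saline was -0.18 (SE 0.10, exact permutation p = 0.0887, adjusted over the 6 tables p = 0.532). Without the cocaine library at 1.91 it was -0.25 (exact permutation p = 0.0173, not adjusted), the 1 of 12 deletions with a p under 0.05. With any other single library left out it lay between -0.21 and -0.14 (exact permutation p from 0.0649 to 0.173, not adjusted). The other 5 tables gave differences between -0.09 and -0.03, each with an adjusted p of 0.805 in the exact permutation test. The mean ratio was lower in cocaine libraries in all 6 tables, and the groups overlapped in each of them.

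**Figure D3:**
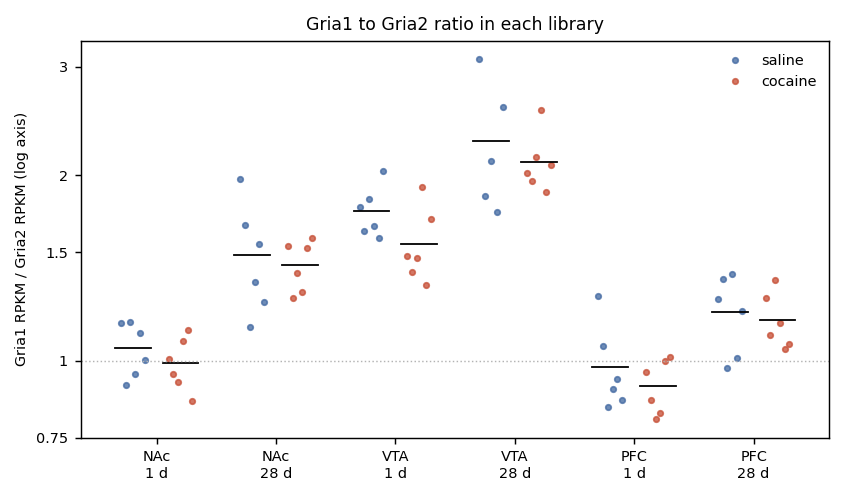
Ratio of Gria1 RPKM to Gria2 RPKM (vertical axis, log scale) in every library, by region and day (horizontal axis). Points are libraries, colour marks cocaine or saline and black lines are group means. The VTA groups lie highest at each day, with means of 1.55 and 1.75 at 1 day and 2.11 and 2.28 at 28 days for cocaine and saline.

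The main question asked of these genes here was whether cocaine self-administration left their RNA changed at early and late abstinence. No member passed the test in any of the 6 tables (edgeR on counts, limma on RPKM in the VTA and the PFC at 1 day). Few genes passed at all. The share of all genes called was 0.0126% in the NAc at 1 day, 0.0665% in the VTA at 1 day, 0.00693% in the PFC at 1 day and 0% in each region at 28 days. DESeq2, the other count tool, called 21, 20, 83 and 2 genes in the NAc at 1 day and in the NAc, the VTA and the PFC at 28 days, and no member was among them. At an unadjusted p under 0.05, members numbered 0 of 9 in the NAc at 1 day (4.01% of all genes), 0 in the VTA at 1 day (15.7%), 0 in the PFC at 1 day (3.78%), 1 in the NAc at 28 days (6.76%), 3 in the VTA at 28 days (11.5%) and 0 in the PFC at 28 days (5.66%). Cocaine and saline libraries overlapped in every member and table. The groups did not overlap in only 0.159% (PFC at 1 day) to 1.67% (VTA at 1 day) of all genes tested. Overlap thus sets the members little apart from other genes.

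The intervals show what sizes the libraries could still hold. In the NAc at 28 days the 95% confidence interval of the log2 difference ran from -0.06 to 0.14 for Gria1 and from -0.18 to 0.30 for Gria2. In the PFC at 28 days it ran from -0.20 to 0.15 for Gria1 and from -0.12 to 0.16 for Gria2. In the NAc at 1 day Gria2 had the interval -0.0046 to 0.27 around a difference of 0.13 (unadjusted p = 0.0571, adjusted p = 0.9999, edgeR). Cnih3 was the least certain gene, with an interval of -0.89 to 0.58 in the NAc at 1 day. The standard error over the other members in the NAc and the PFC was at most 0.155.

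**Figure D4:**
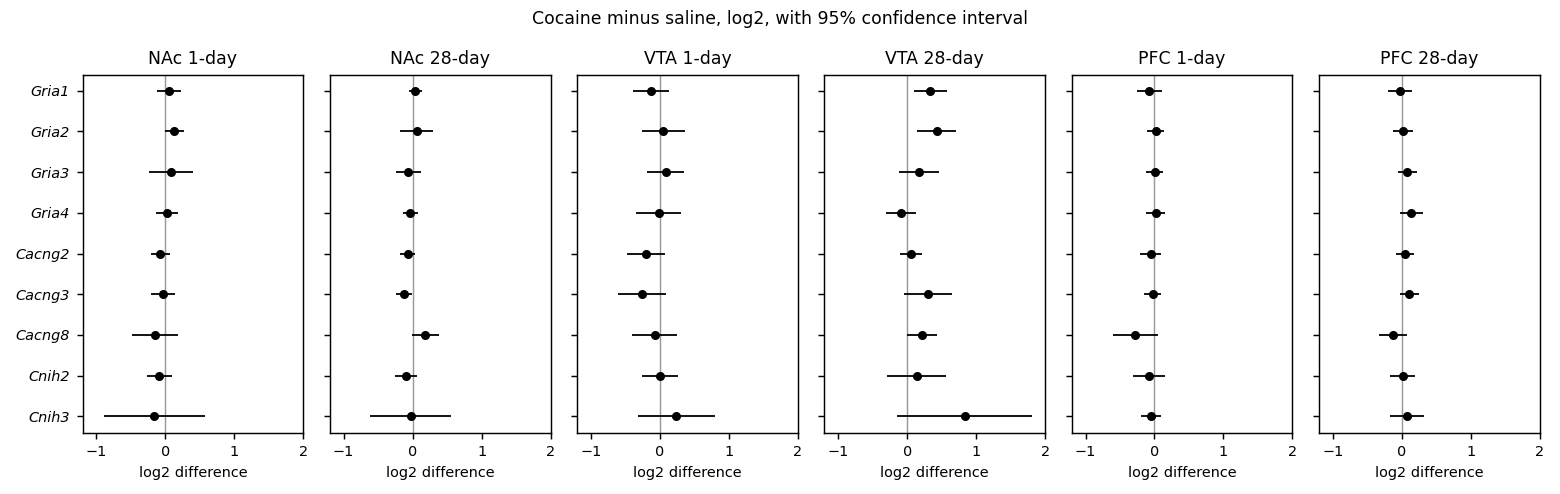
Log2 difference of cocaine minus saline (horizontal axes) for the 9 genes (vertical axes) in each of the 6 tables, on one scale. Points are fitted differences and bars are 95% confidence intervals. The intervals of Gria1, Gria2 and Cacng8 in the VTA at 28 days and of Cacng3 in the NAc at 28 days exclude 0 before adjustment, and none passes after it.

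The VTA at 28 days held the most members with an unadjusted p under 0.05. Gria1 had levels of 65.6, 53.9, 55.7, 44.4 and 50.1 RPKM in the saline libraries, and the cocaine libraries ran from 58.3 over a median of 68.2 to 82.6 RPKM. No cocaine library was below the saline mean, and 1 saline library lay inside the cocaine range. The log2 difference was 0.34 (SE 0.11, unadjusted p = 0.0111, adjusted p = 0.394, edgeR), a fold of 1.26. Over the alternative fits the adjusted p of Gria1 ranged from 0.159 to 0.704.

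Gria2 had 21.2, 29.2, 26.3, 25.5 and 19.4 RPKM in the saline libraries and 28.3, 31.4 and 42.3 RPKM as the lowest, median and highest cocaine value. Here too the cocaine libraries exceeded the mean of the saline group, 6 of 6, and 1 saline library reached into their range. The log2 difference was 0.42 (SE 0.13, unadjusted p = 0.00596, adjusted p = 0.389, edgeR), a fold of 1.34, and its adjusted p ranged from 0.120 to 0.704 over the alternative fits. The ratio of the 2 genes did not separate in the same libraries, with a log2 difference of -0.09 (SE 0.17, exact permutation p = 0.619). Cacng8 ran from 7.39 to 9.23 RPKM in saline and from 8.47 to 9.96 RPKM in cocaine libraries, a log2 difference of 0.22 (unadjusted p = 0.0477, adjusted p = 0.430, edgeR). The fitted difference was positive for 8 of the 9 members, with a median of 0.22 against -0.03 over all genes. Gria4 was the exception at -0.09.

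Cnih3 had the largest difference and the widest spread. The saline libraries held 9.95, 3.57, 3.44, 7.81 and 2.02 RPKM and the cocaine libraries 5.45, 17.7, 5.58, 7.24, 6.27 and 15.5 RPKM. Thus 2 cocaine libraries lay well above all others, and the remaining 4 fell inside the saline range. The log2 difference was 0.84 (SE 0.45, unadjusted p = 0.0875, adjusted p = 0.469, edgeR) and lay between 0.58 and 1.20 when single libraries were left out.

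Markers of some other cell types also had differences of one sign in these VTA libraries. The 10 oligodendrocyte markers summed to 4025 to 7776 RPKM in saline and 2797 to 4993 RPKM in cocaine libraries at 28 days. All 10 had a negative difference of cocaine minus saline, with a median of -0.39, 3 had an unadjusted p under 0.05 and none passed after adjustment. All 6 endothelium markers (median -0.48) and all 8 microglia markers (median -0.34) were negative too, and none passed. The remaining lists were of mixed sign, and none of their markers passed. Positive were 9 of 10 dopamine neuron markers (median 0.18), 5 of 9 testable cortical (0.03) and 6 of 10 medium spiny neuron markers (0.09). So were 4 of 8 pan-neuronal (0.0056), 4 of 7 testable GABA interneuron (0.12) and 3 of 8 astrocyte markers (-0.02). Of the oligodendrocyte precursor markers 3 of 6 (0.02) and of the choroid plexus markers 2 of 5 (-0.63) were positive. With the mean oligodendrocyte marker level as a covariate, an alternative added after the data were seen, the log2 difference was 0.25 for Gria1 (unadjusted p = 0.0698), 0.29 for Gria2 (unadjusted p = 0.0565) and 0.08 for Cnih3 (edgeR). With dopamine neuron markers as the covariate the values were 0.33, 0.42 and 0.88. The cortical markers summed to 14.6 to 95.9 RPKM in saline and 13.8 to 31.1 RPKM in cocaine libraries. With them as the covariate Gria1 was at 0.22 (unadjusted p = 0.107), Gria2 at 0.35 (unadjusted p = 0.0498) and Cnih3 at 0.72 (edgeR). In that fit Gria4, Cacng2, Cacng3 and Cnih2 were negative, 5 of the 9 members were positive and the median over the members was 0.02. With the oligodendrocyte covariate 8 of 9 were positive with a median of 0.18, and with the dopamine neuron covariate 8 of 9 with a median of 0.21. No fit used the endothelium markers as a covariate. Over VTA libraries of both days, as deviations from group means, Pearson's r with Gria1, Gria2 and Cnih3 was taken for both lists. It was -0.32, -0.61 and -0.70 for the oligodendrocyte markers and -0.54, -0.62 and -0.04 for the endothelium markers.

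**Figure D5:**
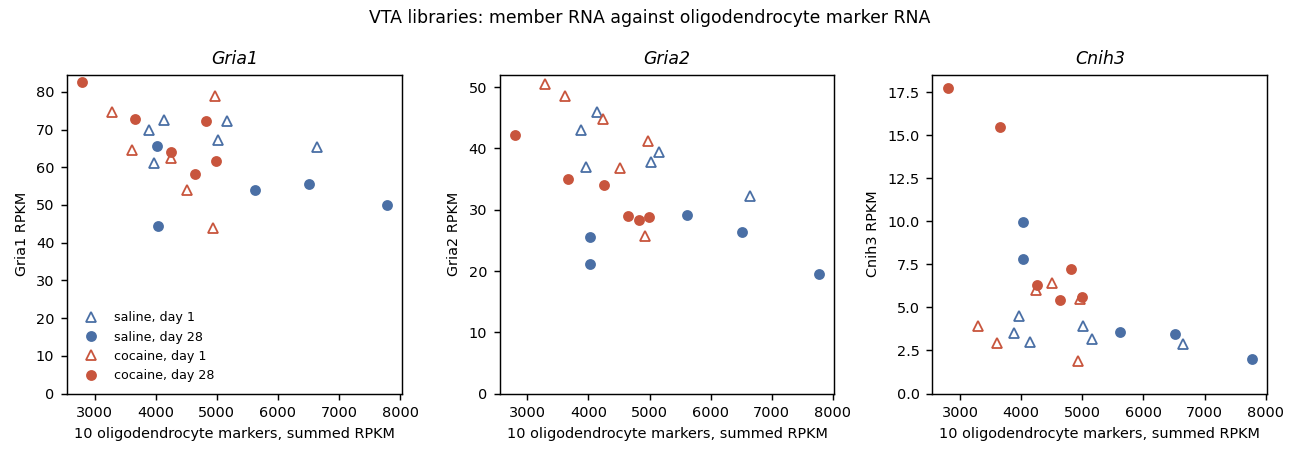
Level of single genes in RPKM (vertical axes, from 0) against the summed RPKM of 10 oligodendrocyte markers (horizontal axes) in the VTA libraries. Each point is a library, colour marks cocaine or saline, and filled symbols are 28-day and open symbols 1-day libraries. At 28 days the saline libraries reach 7776 RPKM of marker RNA and the cocaine libraries at most 4993 RPKM.

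In the VTA at 1 day no member had an unadjusted p under 0.05. Cacng2 ran from 14.98 to 23.9 RPKM in saline and from 12.9 to 19.2 RPKM in cocaine libraries, with a log2 difference of -0.20 (SE 0.13, adjusted p = 0.464, limma). Cacng3 was at -0.26 (SE 0.16, adjusted p = 0.479, limma) and Gria1 at -0.13 (SE 0.12, adjusted p = 0.641, limma). Of the dopamine neuron markers, the 9 that could be tested all had a negative difference of cocaine minus saline, with a median of -0.58, though none passed after adjustment. Their sum was 1162 to 2722 RPKM in saline and 707 to 1696 RPKM in cocaine libraries. All 8 microglia markers (median -0.47, 1 of them past the test) and all 10 oligodendrocyte markers (median -0.18, none past it) were negative as well. The 5 cortical markers that could be tested were all positive (median 1.04, 3 with an unadjusted p under 0.05). So were 5 of 6 endothelium markers (median 0.29) and all 3 testable choroid plexus markers (median 0.63), and no marker of these lists passed after adjustment. None passed in the remaining lists. Positive there were 1 of 8 pan-neuronal (median -0.05), 2 of 8 astrocyte (-0.14) and 2 of 6 oligodendrocyte precursor markers (-0.09). So were 7 of 10 medium spiny neuron (0.27) and 3 of 6 testable GABA interneuron markers (0.22). Cacng2 was the 1 member whose call depended on the fit. It was at -0.38 with oligodendrocyte markers as the covariate (adjusted p = 0.0340, limma, in a fit added after the data were seen that called 778 genes in all), at -0.29 with dopamine neuron markers and at 0.12 with cortical markers. Its adjusted p ranged from 0.0340 to 0.999 over 7 alternative fits.

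Whether the effect of cocaine differed between 1 and 28 days was tested in each region. No member passed in the NAc (0.0181% of all genes called, edgeR), the VTA (0%, limma) or the PFC (0.00701%, limma). In the VTA, 2 of the 9 members had an unadjusted p under 0.05, against 13.9% of all genes. The change in the cocaine effect from 1 to 28 days was 0.47 on the log2 scale for Gria1 (SE 0.17, adjusted p = 0.273, limma) and 0.58 for Cacng3 (SE 0.24, adjusted p = 0.310, limma). For the 9 members it was positive in 8, with a median of 0.30 against -0.04 over all genes. The limma fits of the VTA and the PFC joined RPKM at 1 day to TMM-scaled counts at 28 days. Day thus cannot be told apart from unit and scaling in them. With recovered reads at 1 day the VTA change was 0.49 for Gria1 and 0.56 for Cacng3, and no member passed. In the NAc, the members' changes lay between -0.13 and 0.35, and in the PFC between -0.0046 and 0.17. In the PFC 8 of 9 were positive too, with a median of 0.10 against 0.02 over all genes, and in the NAc 4 of 9.

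In the NAc at 28 days Cacng3 had an unadjusted p under 0.05. The saline libraries ran from 51.3 over a median of 54.8 to 57.9 RPKM and the cocaine libraries from 46.7 over 50.2 to 54.7 RPKM. No cocaine library exceeded the saline mean and 5 lay below all saline libraries. The log2 difference was -0.13 (SE 0.05, unadjusted p = 0.0336, adjusted p = 0.692, edgeR). Cacng8 was at 0.18 in the same table (adjusted p = 0.754, edgeR).

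Cnih3 varied within NAc groups more than the other members. Its levels in the saline libraries at 1 day were 9.27, 19.3, 9.81, 9.08, 12.4 and 19.9 RPKM, and in the cocaine libraries 5.56, 10.7, 19.6, 6.49, 7.47 and 20.4 RPKM. The coefficient of variation was 37.9% to 56.9% in the 4 NAc groups, where that of Gria1 was 2.86% to 11.2%. Markers of several cell types went with it. Over the 24 NAc libraries, as deviations from group means, Cnih3 had a Pearson r of 0.96 with 6 of the 8 GABA interneuron markers. The r was 0.88 with the 8 astrocyte markers, 0.85 with 5 of the 10 cortical markers and 0.80 with the 8 pan-neuronal markers. With the 10 medium spiny neuron markers it was -0.88. These values are descriptions across libraries that share punch, depth and dissection. In the PFC at 28 days, Cnih3 was at 23.9 RPKM in the saline library with striatal markers and at 47.2 RPKM in the highest of its group. Its log2 difference of cocaine minus saline was 0.08, and -0.01 without that library.

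The other genes of the pathway were taken from a list of 26 genes for further auxiliary subunits, assembly factors and trafficking proteins, of which 25 were found. None passed in any of the 6 comparisons of cocaine with saline. In the VTA at 28 days 4 of the 25 had an unadjusted p under 0.05, where 11.5% of all genes did, and are named after their values were seen. They were Shisa7 (log2 difference 0.44), an auxiliary subunit, Frrs1l (0.33), a factor of receptor assembly, Nptx1 (0.61), a pentraxin that clusters receptors, and Grip1 (0.21), a scaffold that binds the Gria2 product, each with an adjusted p from 0.389 to 0.410 (edgeR). The list's median was -0.00014 there, against -0.03 over all genes.

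Between regions the list followed the members in part. In saline mice at 28 days 16 of the 25 genes were higher and 3 lower in the NAc than in the VTA, where 62.5% of all genes were called. Akap5, the kinase anchor of the postsynaptic density, was higher by 4.93 on the log2 scale, Shisa7 by 2.76 and Dlg4, the scaffold PSD-95, by 1.72. Between the NAc and the PFC 7 were higher and 8 lower in the NAc (40.7% of all genes called), and the pentraxin genes Nptx1 and Nptxr had differences of -2.78 and -2.41 and Nsf, an ATPase that binds the Gria2 product, of -0.61. Nptxr had a mean under 0.1 RPKM in every region at 1 day but in none at 28 days, so its level depended on the set of tables. The cause was not tested. Between the VTA and the PFC 5 were higher and 17 lower in the VTA (57.8% of all genes called), among them Dlg4 at -1.59, Shisa7 at -2.05 and Frrs1l at -1.78.

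The genes most like each member in their deviations from the group means were sought over all 71 libraries among 13817 genes tested in every table. Likeness is Pearson's r across libraries that share depth and dissection, and it is a description. The highest were Kcnj9 for Cnih3 (r = 0.90, Spearman's rho = 0.87), Caly for Cnih2 (0.88, 0.80) and Nalcn for Gria2 (0.86, 0.83). Lrfn5 led for Gria4 (0.82, 0.70), Prkce for Gria3 (0.80, 0.74) and Usp11 for Gria1 (0.78, 0.80). For the TARPs the values were 0.75 with Bai2 (Cacng8), 0.74 with Gabbr1 (Cacng3) and 0.70 with Got2 (Cacng2). Within regions these could differ. Cacng3 and Gabbr1 had r = 0.78 in the NAc, 0.83 in the VTA and 0.05 in the PFC, and Cacng2 and Got2 had 0.66, 0.88 and 0.39. The second genes were Fam5b for Cnih3, Morn4 for Cnih2, Sgip1 for Gria2, Trhde for Gria4, Pgm2l1 for Gria3, Mttp for Gria1, Lrrn2 for Cacng8, Scrn1 for Cacng3 and Rpp25 for Cacng2. Members were left out of this search. Among the members, the closest pair over all libraries was Cacng8 and Cnih2 (r = 0.59), and the pair Gria1 and Gria2 had r = 0.61 in the VTA, 0.11 in the PFC and 0.07 in the NAc.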

How the data were processed

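Total RNA of micro-punches was sequenced, and reads were aligned to mm9 with STAR 2.4.1d (submitters' processing notes, which also name DESeq2 and edgeR). The counting tool and its use of strand are not given in the sources used here. The authors deposited raw counts per gene for the NAc at 1 day and for all 3 regions at 28 days, and RPKM for the VTA and the PFC at 1 day, made with edgeR from the longest collapsed isoform. RPKM of the other tables was computed here from counts and the authors' lengths. Whole reads were recovered from the RPKM for all genes with reads (23806 in the VTA, 23353 in the PFC, tolerance 0.01 read). The log2 fold change and p-value columns that the authors deposited hold their own comparisons and were not used. 30 columns of values belong to none of the samples and were not used. The numbers in the 28-day column names do not match those of the sample titles, so these columns were mapped to their group only.

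Counts were tested with edgeR 4.0.16 (quasi-likelihood, TMM, filterByExpr with 10 and 15 reads), and RPKM with limma 3.58.1 on log2(RPKM + 0.1) for genes with a mean of at least 0.5, which understates changes of low genes. In these limma fits a difference is on the log2(RPKM + 0.1) scale. P-values were adjusted by Benjamini-Hochberg over all genes, with a threshold of 0.05. Regions were compared in 1 edgeR fit of the 28-day saline libraries. The change between days used edgeR in the NAc and limma in the VTA and the PFC. Those limma fits joined log2(RPKM + 0.1) without TMM at 1 day to log2 counts scaled by TMM at 28 days. Unit and scaling thus differed between the days there. Ratios were tested by a two-sided exact permutation test. Alternatives were DESeq2 1.42.0, other scaling, filters and pseudocounts, marker covariates, the replicate block and leaving out each library. The region fits of 1-day libraries, the oligodendrocyte and dopamine neuron covariates and the region test of ratios were added after the data were seen. R 4.3.3 and Python 3.11.15 were used. The scripts were tested on simulated data. No 2 libraries of a group were identical, and in each of 175 pairs they differed by more than sampling noise (chi-square per degree of freedom at least 4.59).

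All 9 genes are named. Of the other AMPA receptor genes, up to 3 per comparison past the threshold are named by smallest adjusted p, and for likeness the 2 genes with the highest r. The genes and lists were chosen with earlier results of these data known. In the 1-day tables, libraries of the same number had correlated deviations over 0.1 in 3 of 6 pairs (NAc), 4 of 6 (VTA) and 1 of 6 (PFC). The correlations ran from -0.54 to 0.64 in the NAc, -0.33 to 0.50 in the VTA and -0.19 to 0.13 in the PFC. So few pairs cannot settle whether the numbers pair the samples, and the main fits left them unpaired.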

Additional observations from a re-analysis of the deposited data

Results flagged for a closer look

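In 5 of 120 sets of libraries tested, the highest library stood apart from the rest of its group by Dixon's criterion, where chance gives about 1 in 20, or 6 sets. Gria2 was at 83.0 RPKM in 1 cocaine PFC library at 28 days, with the next library at 69.8. Cacng8 was at 9.23 RPKM in 1 saline VTA library at 28 days, with the next at 7.81. Cnih2 was at 228 RPKM in 1 saline NAc library at 28 days (next 189) and at 33.6 RPKM in 1 saline VTA library at 1 day (next 28.9). Cnih3 was at 35.9 RPKM in 1 cocaine PFC library at 1 day (next 31.6).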

How the results depend on the processing

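No alternative called a member between cocaine and saline, except that Cacng2 was called in the VTA at 1 day with the oligodendrocyte covariate. The number of all genes called moved. DESeq2 called 21 in place of 2 in the NAc at 1 day, 20, 83 and 2 in place of 0 in the NAc, the VTA and the PFC at 28 days, and 10 in place of 3 for the change in the NAc. The cortical covariate gave 4 in the NAc and 0 in the VTA at 1 day. For the VTA at 1 day, where 10 were called, edgeR on recovered reads gave 55 and the oligodendrocyte covariate 778. The replicate block, fitted only at 1 day because the numbers of the 28-day columns could not be matched to sample titles, gave 60 in the VTA and changed no call of a member. The libraries shared only a number, and 1, 2 and 0 of 6 cocaine libraries of the NAc, the VTA and the PFC correlated best with the saline library of their own number. Leaving out single libraries gave 0 to 2 genes in the NAc at 1 day, 0 to 2 in the NAc at 28 days (2 without saline replicate 1, numbered in column order), 0 to 65 in the VTA at 1 day, 1 to 2 in the PFC at 1 day and 1 to 5 for the change in the NAc. The cause was not tested.

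Some member differences changed sign, and none of these passed the test unless stated. Before the change Cacng3 in the VTA at 28 days was at 0.31, and Cnih3 and Cacng2 in the VTA at 1 day were at 0.24 and -0.20. With the oligodendrocyte covariate the log2 differences were 0.039 for Gria4 in the NAc at 28 days, -0.13, -0.072 and -0.075 for Gria2, Gria3 and Cnih2 in the VTA at 1 day, 0.0097 and -0.052 for Gria4 and Cnih2 in the VTA at 28 days, 0.0027 for Cacng3 in the PFC at 1 day, and -0.016 and -0.0097 for Cnih2 and Cnih3 in the PFC at 28 days. With the cortical covariate they were 0.27 for Cnih3 in the NAc at 28 days, 0.18, 0.12 and 0.14 for Gria4, Cacng2 and Cacng8 in the VTA at 1 day, -0.014, -0.0092 and -0.13 for Cacng2, Cacng3 and Cnih2 in the VTA at 28 days, and -0.0019 for Gria3 in the PFC at 1 day. The dopamine neuron covariate gave 0.0045, 0.028 and -0.066 for Gria1, Gria4 and Cnih3, and recovered reads gave -0.019 for Cnih2, in the VTA at 1 day. Between the NAc and the PFC, Cacng8 was at 0.20 in cocaine and 0.10 in saline libraries at 1 day and at 0.10 in cocaine libraries at 28 days. Between the VTA and the PFC, Cacng2 was at 0.064 in cocaine libraries and at 0.27 in saline libraries at 1 day, the latter past the test. The ratio of Gria1 to Gria2 in the NAc at 28 days was 0.012 as a difference of medians.

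With single libraries left out, values in the NAc at 1 day ran from -0.0086 to 0.17 (Gria3), -0.0030 to 0.076 (Gria4), -0.072 to 0.0081 (Cacng3) and -0.40 to 7.5e-05 (Cnih3). In the NAc at 28 days they ran from -0.011 to 0.13 (Gria2) and -0.24 to 0.20 (Cnih3). In the VTA at 1 day they ran from -0.015 to 0.18 (Gria2), -0.12 to 0.11 (Gria4), -0.14 to 0.015 (Cacng8) and -0.071 to 0.10 (Cnih2), and in the VTA at 28 days from -0.0059 to 0.36 (Cnih2). In the PFC at 1 day they ran from -0.00080 to 0.049 (Gria2), -0.025 to 0.031 (Gria3), -0.026 to 0.046 (Gria4) and -0.053 to 0.012 (Cacng3). In the PFC at 28 days they ran from -0.072 to 0.040 (Gria1), -0.039 to 0.048 (Gria2), -0.032 to 0.064 (Cnih2) and -0.0091 to 0.18 (Cnih3). For the change in the NAc they ran from -0.051 to 0.029 (Gria1), -0.13 to 0.015 (Gria2), -0.018 to 0.070 (Cacng2), -0.031 to 0.069 (Cnih2) and -0.063 to 0.39 (Cnih3). The log2 ratio of Gria1 to Gria2 ran from -0.11 to 0.055 in the NAc at 28 days, -0.25 to -0.14 in the VTA at 1 day, -0.17 to 0.033 in the VTA at 28 days and -0.093 to 0.0077 in the PFC at 28 days. Of the alternatives that left out no library, 479 member values kept both direction and side of the threshold, 26 changed sign as above, and 6 gained and 2 lost the threshold. The number of libraries, 5 or 6 per group, limits which small differences could be seen.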
